A study of Chlamydomonas reinhardtii with 12 samples.

Results

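The comparison described here set vip1-1 cells of the unicellular green alga Chlamydomonas reinhardtii against wild-type cells in young cultures with sufficient nutrients. Its members are 3 vip1-1 control libraries and 3 wild-type control libraries, taken by their genotype and treatment labels, 6 of the 12 libraries of the series. The count table held 17741 gene IDs, of which 15286 had enough counts to be tested. The vip1-1 strain is described by the series as deficient in inositol pyrophosphates, and both genotypes are labelled with the strain CC-1690, a common laboratory strain. Control cultures of both genotypes grew for 24 h in liquid TAP, an acetate-containing medium, at 25 °C, with illumination at 50 μmol photons m-2 s-1. The other 6 libraries came from vip1-1 and wild-type cultures grown for 14 days in the same conditions, which the labels call nutritional stress. Those 6 are separate samples and are used below to look at the same genes a second time. Whether they came from the cultures sampled at 24 h is not given in the sources used here. How vip1-1 was made, how many independent mutant lines were used and whether a complemented line was included are not given in the sources used here, so vip1-1 is treated as 1 strain.

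Inositol pyrophosphates are small signalling molecules made by adding a further phosphate to an already phosphorylated inositol ring. VIP1 is a kinase of this pathway, conserved from yeast to plants and animals. In yeast and plants these molecules bind SPX domains, protein modules that report the phosphate status of the cell, and in Chlamydomonas VIP1 has been linked genetically to signalling by the TOR kinase, which couples growth to nutrient supply. The gene IDs of the table came with no gene names or functions in the sources used here, so the genes are described by ID, level, pattern across groups and place in the genome, and no role is given to any of them. The disrupted gene itself was therefore not looked up as a check of the labels.

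The libraries differed in depth and in composition. The vip1-1 control libraries held 21144224 to 28833327 counts and the wild-type control libraries 9749837 to 21840013. A set of 6 very abundant features whose counts moved together took 4.85%, 3.16% and 0.561% of the counts in vip1-1 control replicates 1 to 3, against 71.0%, 14.6% and 9.32% in wild-type control replicates 1 to 3. That difference could not pass a test at this size (exact two-sided permutation test, p = 0.1, the smallest 3 against 3 allows). After scaling for composition with TMM, a method that sets aside the most extreme genes, the effective depth was 27873279 to 39020888 counts in vip1-1 control, against 3361747, 13690534 and 27239952 counts in wild-type control replicates 1 to 3. The genotypes did not separate fully by rank correlation. Across genes, wild-type control replicate 3 had a Spearman rank correlation of 0.950 with vip1-1 control replicate 3, against 0.833 and 0.891 with the other wild-type control libraries. Wild-type control replicate 2 correlated at 0.935 with each of vip1-1 control replicates 1 and 2, against 0.898 and 0.891 with the other wild-type control libraries. Within vip1-1 control, replicates 1 and 2 correlated at 0.990 and each correlated with replicate 3 at 0.906 and 0.908. The biological coefficient of variation, the spread between replicates beyond counting noise, was 0.380 in vip1-1 control and 0.801 in wild-type control. Each library averages a whole culture, so fewer cells that express a gene and less of its RNA per cell cannot be told apart.

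Few genes passed the test between the genotypes in control cultures, and 12 of the 27 higher genes had no counts in any wild-type control library. Over all 17741 IDs, 42 had 0 counts in every wild-type control and at least 10 in each vip1-1 control. The filter admits genes with enough counts in a single group, and the shallow wild-type control replicate 1 makes zeros on that side more likely. With edgeR's quasi-likelihood test and Benjamini-Hochberg adjustment, 39 of 15286 genes (0.255%) had an adjusted p under 0.05. Of these, 27 (0.177%) were higher and 12 (0.0785%) were lower in vip1-1. Scaled by library totals alone, which shifts the median log2 fold change of all tested genes to 0.69, 25 genes were called, 21 higher and 4 lower. In the reported fit the median log2 fold change was 6.34 over the higher genes and -2.68 over the lower genes, against 0.11 over all tested genes. At an unadjusted p under 0.05 there were 993 genes. A change of at least 4-fold was fitted for 28 of the 39, of which 7 were lower. In all 39 genes the 3 vip1-1 libraries lay wholly above or wholly below the 3 wild-type libraries, an arrangement that 12.5% of all tested genes had. The median TMM-scaled FPKM, a level per transcript length, was 3.21 over the higher genes and 5.67 over the lower genes, against 2.96 over all tested genes. With the 6 abundant features removed before the fit, 36 genes were called.

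The number of genes called rested on single libraries. Leaving out one control library at a time gave between 9 and 849 calls. It fell to 9 without wild-type control replicate 2 or without vip1-1 control replicate 1, to 11 without vip1-1 control replicate 2, and to 28 without wild-type control replicate 1. It was 44 without vip1-1 control replicate 3 and 849 (5.53% of the genes tested in that fit) without wild-type control replicate 3. The labels state no pairing, and replicate numbers of the control libraries were taken as pairs on a correlation check alone. By rank correlation, wild-type control replicate 2 was as close to vip1-1 control replicate 1 (0.935) as to replicate 2 (0.935). A replicate block fitted to all 12 libraries called 12 genes. A block that was separate for control and stress libraries called 0 genes with edgeR's test, with 1203 genes at an unadjusted p under 0.05, a lowest adjusted p of 0.068, and the direction kept in 39 of 39 genes. A block in the control libraries alone called 0 genes in edgeR, with 1315 at an unadjusted p under 0.05. In none of the 20 alternative fits did any of the 39 genes change direction. The control groups did not overlap in any of the 39, so fits to the same counts could hardly reverse one.

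**Figure D1:**
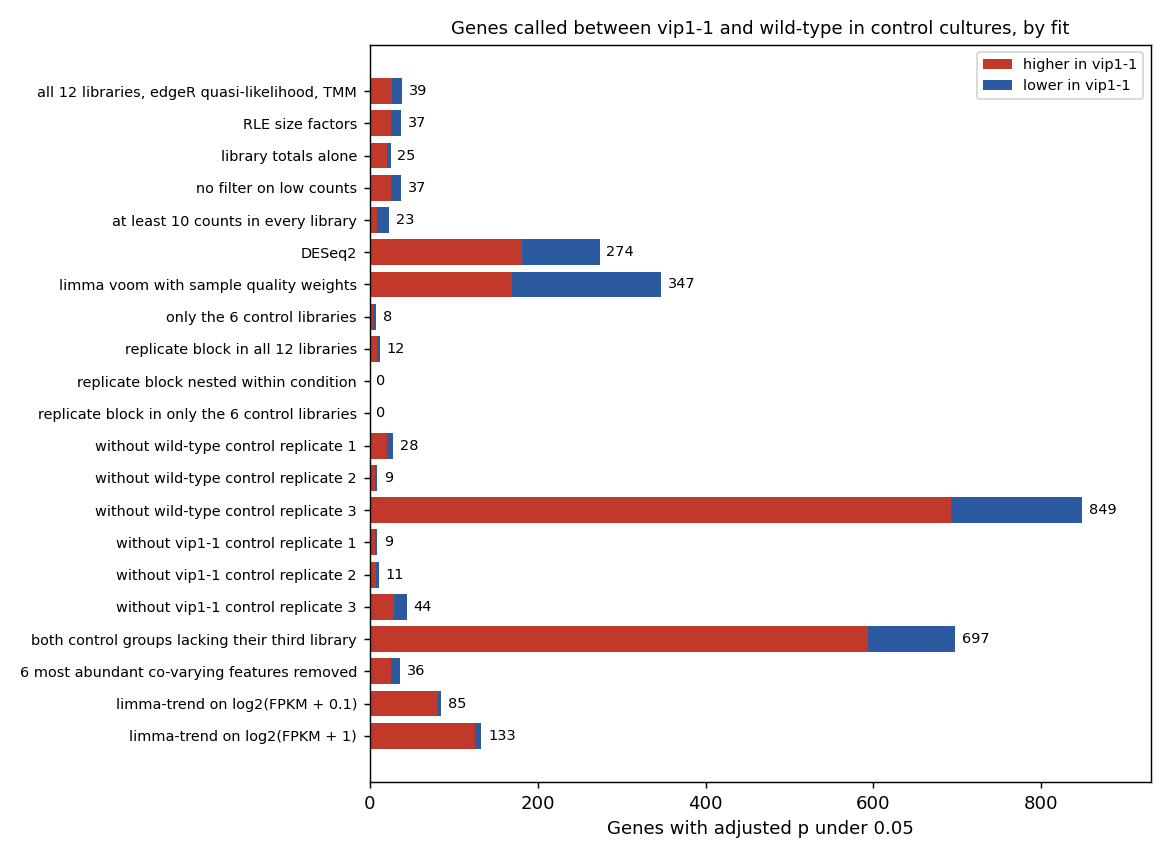
Number of genes called between vip1-1 and wild-type in control cultures (x axis, genes with adjusted p under 0.05) under each fit (y axis), split into genes higher and lower in vip1-1. The reported fit called 39 genes, and the fit without wild-type control replicate 3 called 849.

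A core of 9 genes was called in each of the 6 fits that left out one control library, and also with the replicate block in all 12 libraries. In this core, 6 genes were higher in vip1-1 (Cre12.g537611, Cre01.g021350, Cre16.g681100, Cre16.g674151, Cre16.g681200 and Cre16.g686285) and 3 were lower (Cre16.g673852, Cre11.g476325 and Cre02.g141550). Cre16.g673852 and Cre11.g476325 had nearly the same counts and may share reads. They may therefore not be separate signals in this or the other counts of genes. None of the 9 was called with the block nested in condition or with the block in the control libraries alone. Cre16.g681100, Cre16.g686285 and Cre02.g141550 were also not called when only the 6 control libraries were fitted without a block. The core genes are described first because they depended least on any one library.

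Cre12.g537611 was present in vip1-1 control at 59.1, 59.8 and 73.1 CPM (counts scaled to the effective library size) and had 0 counts in all 3 wild-type control libraries. Every vip1-1 control library was high and every wild-type control library was at 0. Against a floor of 3 counts in the shallowest wild-type library, or 0.892 CPM, its level was at least 71.7-fold higher in vip1-1 (edgeR adjusted p = 0.00057), or at least 292-fold higher with wild-type control replicate 1 left out of the floor. Had wild-type held the vip1-1 level, replicate 1 would have shown about 215 counts. The gene stayed high in the older vip1-1 cultures, at 38.9, 52.4 and 41.9 CPM, against 0.526, 0.370 and 0 CPM in wild-type stress.

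Cre01.g021350 followed the same arrangement, with 29.2, 25.1 and 31.0 CPM in vip1-1 control and 0 counts in each wild-type control library. That is at least 31.9-fold higher in vip1-1 (edgeR adjusted p = 0.00047, the lowest in this comparison). Its stress levels were 12.8, 14.7 and 18.6 CPM in vip1-1 and 0.876, 0.247 and 0.469 CPM in wild-type, with no overlap.

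Cre16.g681200 and Cre16.g681100 are next to each other in the gene order of chromosome 16 and were the only neighbouring genes among the 39. Cre16.g681200 had 109, 104 and 128 CPM in vip1-1 control, against 0, 0 and 0.514 CPM in wild-type control, a log2 fold change of 8.66 ± 0.89 (SE, edgeR adjusted p = 0.0021). Its few wild-type counts came from replicate 3, without which the log2 fold change was 14.11. Cre16.g681100 had 11.7, 14.5 and 20.3 CPM in vip1-1 control and 0 counts in all wild-type controls, at least 17.4-fold higher in vip1-1 (edgeR adjusted p = 0.0061). Both genes were again high in vip1-1 stress and near 0 in wild-type stress: Cre16.g681200 had 85.8 to 98.8 CPM in vip1-1 stress and at most 0.986 CPM in wild-type stress, and Cre16.g681100 had 10.02 to 12.5 CPM in vip1-1 stress and at most 0.292 CPM in wild-type stress.

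Cre16.g674151 was the only gene of the core with RNA in every vip1-1 library and in no wild-type library of either condition. It had 13.9, 15.5 and 14.6 CPM in vip1-1 control and 13.3, 8.18 and 9.95 CPM in vip1-1 stress, and 0 counts in all 6 wild-type libraries. Its control level was at least 16.5-fold higher in vip1-1 (edgeR adjusted p = 0.0021). Cre16.g686285 differed by degree: it had 22.6, 24.0 and 36.6 CPM in vip1-1 control, against 0, 1.17 and 1.28 CPM in wild-type control, a log2 fold change of 4.78 ± 0.55 (SE, edgeR adjusted p = 0.0040). It was the only core gene not called under stress, where it had 11.9 to 13.7 CPM in vip1-1 and 3.19 to 6.16 CPM in wild-type.

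**Figure D2:**
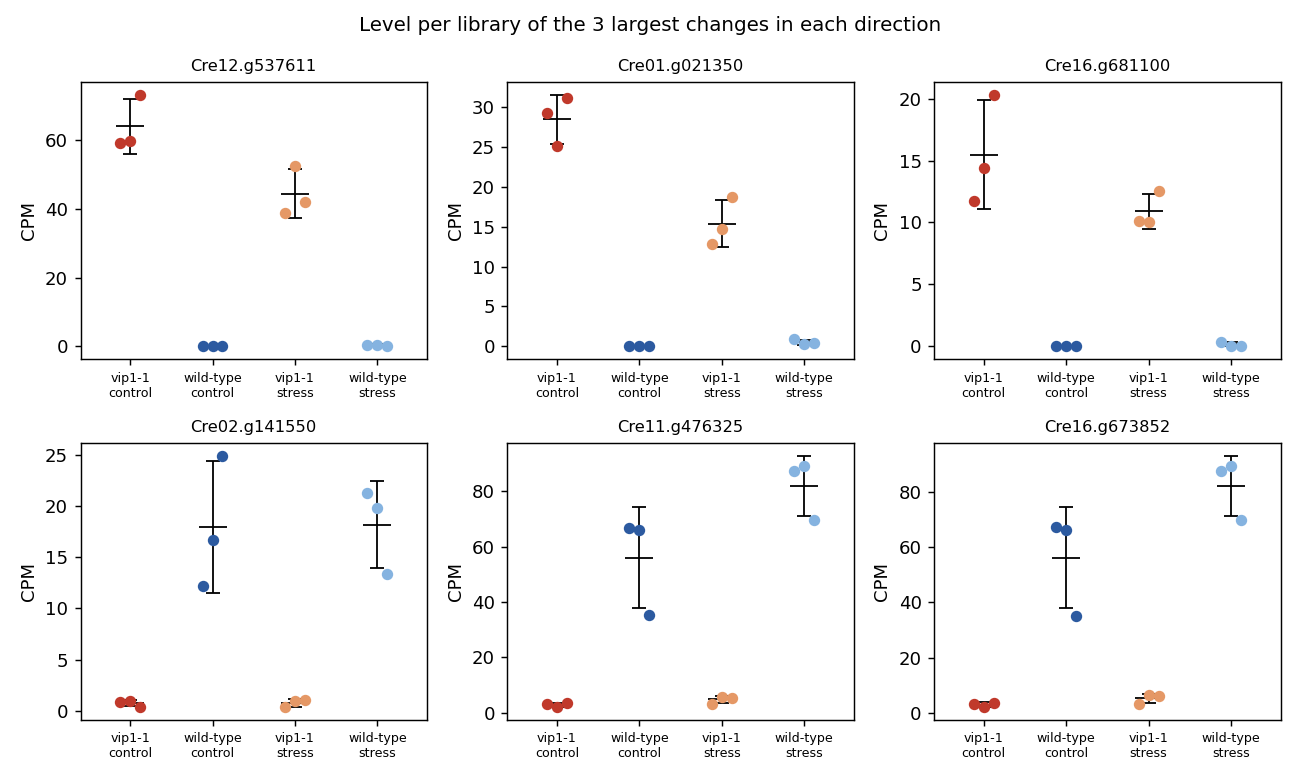
Level per library (y axis, CPM) of the 3 genes with the largest fitted change in each direction among the control calls that reached the level required for naming, by group on the x axis. Points are libraries, dashes are group means and error bars are SDs (n = 3); in each gene the control libraries of vip1-1 and wild-type do not overlap.

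On the lower side, Cre02.g141550 had 0.861, 0.999 and 0.396 CPM in vip1-1 control, against 12.2, 16.7 and 24.9 CPM in wild-type control. The log2 fold change was -4.57 ± 0.51 (SE, edgeR adjusted p = 0.0038), and all vip1-1 libraries were far below all wild-type libraries. Under stress the gene was at 0.351 to 1.07 CPM in vip1-1 and at 13.3 to 21.3 CPM in wild-type. Cre16.g673852 had 3.16, 2.05 and 3.69 CPM in vip1-1 control, against 67.2, 66.0 and 35.1 CPM in wild-type control, a log2 fold change of -4.24 ± 0.38 (SE, edgeR adjusted p = 0.00072). Cre11.g476325 had closely matching values across the libraries, although its ID places it on chromosome 11. Absolute count differences between the IDs, summed over all libraries, were 0.69% of the summed counts. The gap was widest in vip1-1 stress replicates 2 and 3, with 176 and 97 counts for Cre16.g673852 against 161 and 86 for Cre11.g476325. The 2 IDs may therefore share reads, and which of them was expressed is uncertain.

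Of the 39 called genes, 12 had 0 counts in every wild-type control library. Besides the 4 already described, Cre12.g532300 had 15.6, 15.9 and 4.69 CPM in vip1-1 control, at least 13.5-fold higher than wild-type. Cre03.g201888 had 10.9, 12.8 and 1.86 CPM and was at least 9.53-fold higher. Cre07.g329767 had 7.39, 7.18 and 5.97 CPM and was at least 7.67-fold higher. These 3 genes were also at 0 in every wild-type stress library, while in vip1-1 stress Cre12.g532300 had 6.55 to 12.6 CPM, Cre03.g201888 had 10.9 to 11.7 CPM and Cre07.g329767 had 2.69 to 3.76 CPM.

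Cre12.g514400 was also at 0 in wild-type control, with 6.17, 6.28 and 6.52 CPM in vip1-1 control, at least 7.08-fold higher. Cre05.g246600 had 4.88, 4.72 and 1.34 CPM in vip1-1 control, at least 4.08-fold higher. Both were higher again under stress: Cre12.g514400 reached 13.4 to 26.3 CPM in vip1-1 stress against at most 1.03 CPM in wild-type stress.

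In the remaining 3 of these genes the wild-type depth set a tight limit. Cre14.g625350 had 1.51, 1.59 and 0.822 CPM in vip1-1 control and was at least 1.46-fold higher, and Cre02.g145750 had 0.610, 0.923 and 1.34 CPM and was at least 1.07-fold higher. Cre12.g557750 had 0.431, 0.718 and 0.335 CPM, below what 3 counts in the shallowest wild-type library stand for, so no fold is given. These 3 genes were not silent in older wild-type cultures: Cre12.g557750 had 24.1, 21.5 and 25.2 CPM in vip1-1 stress and 15.5, 17.3 and 11.4 CPM in wild-type stress, a difference that was not called (edgeR adjusted p = 0.37).

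**Figure D3:**
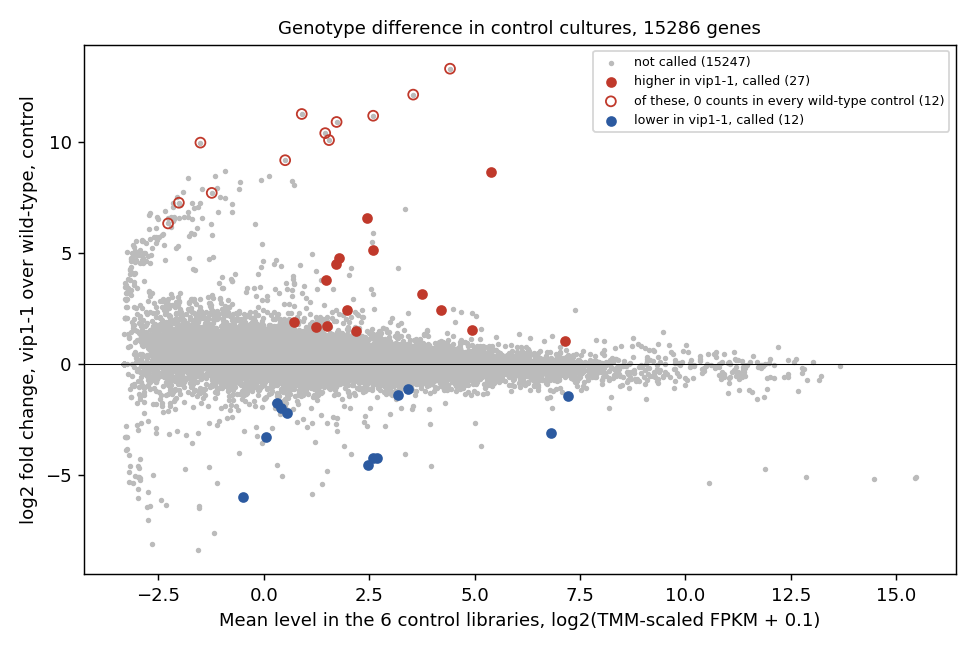
Log2 fold change of vip1-1 over wild-type in control cultures (y axis) against mean level in the 6 control libraries (x axis, log2 of TMM-scaled FPKM plus 0.1) for 15286 genes. Coloured points are the 39 called genes; open circles are the 12 with 0 counts in every wild-type control, whose fitted fold change depends on the prior count.

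Among genes with some RNA in wild-type control, Cre16.g677382 had 52.8, 57.4 and 63.5 CPM in vip1-1 control, against 0, 0.584 and 3.38 CPM in wild-type control. The log2 fold change was 5.12 ± 0.71 (SE, edgeR adjusted p = 0.017), or 7.04 without wild-type control replicate 3. In older cultures the genotypes overlapped, with 57.1 to 73.5 CPM in vip1-1 stress and 50.5 to 117 CPM in wild-type stress. Cre03.g194600 had 69.0, 63.1 and 57.9 CPM in vip1-1 control, against 5.06, 3.51 and 12.3 CPM in wild-type control, a log2 fold change of 3.14 ± 0.43 (SE, edgeR adjusted p = 0.017), or 3.93 without wild-type control replicate 3. Its stress levels were 68.5 to 82.3 CPM in vip1-1 and 74.5 to 127 CPM in wild-type. For both genes wild-type control was the lowest of the 4 groups, with no overlap with any other. The interaction was not called for either (edgeR adjusted p = 0.066 for Cre16.g677382 and 0.076 for Cre03.g194600).

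Cre06.g309000 had 52.1, 69.3 and 53.6 CPM in vip1-1 control, against 16.4, 11.2 and 5.87 CPM in wild-type control, a log2 fold change of 2.43 ± 0.36 (SE, edgeR adjusted p = 0.022). Its level in older cultures was higher still, at 185 to 272 CPM in vip1-1 stress and 247 to 412 CPM in wild-type stress. Cre10.g429000 had 36.7, 40.2 and 17.4 CPM in vip1-1 control, against 8.33, 3.43 and 6.24 CPM in wild-type control, and Cre13.g605900 had 22.3, 21.3 and 37.8 CPM against 8.03, 5.92 and 7.97 CPM. Neither was called under stress, where Cre13.g605900 had 36.3 to 52.5 CPM in vip1-1 and 26.6 to 30.4 CPM in wild-type.

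Cre15.g634650 had 43.6, 39.3 and 38.3 CPM in vip1-1 control, even across the libraries, against 5.95, 2.99 and 1.03 CPM in wild-type control. Its log2 fold change was 3.78 ± 0.57 (SE, edgeR adjusted p = 0.023), or 4.38 without wild-type control replicate 1. Cre03.g151450 had 34.2, 32.3 and 7.68 CPM in vip1-1 control, against 0, 0 and 0.477 CPM in wild-type control, so its fitted log2 fold change of 6.59 ± 1.14 (SE, edgeR adjusted p = 0.045) rested on the few counts of wild-type control replicate 3 and was 11.91 without that library. Cre04.g215400 changed least among the higher genes taken by the naming rule for size, with 16.1, 16.9 and 16.9 CPM in vip1-1 control and 5.95, 5.11 and 4.55 CPM in wild-type control. It was called higher again in older cultures (edgeR adjusted p = 0.015), with 21.3 to 22.9 CPM in vip1-1 stress and 6.90 to 10.3 CPM in wild-type stress.

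The highest called gene in CPM in vip1-1 control, a scale without transcript length, was Cre13.g590500, which falls outside the naming rule and was chosen after its values were seen. It had 410, 413 and 459 CPM in vip1-1 control, against 206, 223 and 204 CPM in wild-type control, a log2 fold change of 1.02 ± 0.18 (SE, edgeR adjusted p = 0.047). In older cultures it was at 69.6 to 85.1 CPM in vip1-1 and 67.4 to 76.1 CPM in wild-type. The other 4 higher genes outside the naming rule were Cre17.g698500, Cre17.g735200, Cre07.g347100 and Cre12.g541950, with control log2 fold changes of 4.53, 1.64, 1.53 and 1.46. Of these, Cre17.g698500 and Cre17.g735200 were called higher under stress as well.

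Within vip1-1 control the higher genes were not all even. In 6 of the 27 (22.2%), replicate 3 was below 0.5 times each other library of its group, against 9.59% of all tested genes. They were Cre12.g532300, Cre03.g201888, Cre05.g246600, Cre03.g151450, Cre17.g698500 and Cre10.g429000, and their replicate 3 values still lay above every wild-type control value.

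Besides the core, 9 genes were lower in vip1-1. Cre16.g671950 had 43.3, 43.7 and 50.2 CPM in vip1-1 control, against 562, 505 and 140 CPM in wild-type control. The log2 fold change was -3.14 ± 0.45 (SE, edgeR adjusted p = 0.021), and wild-type control replicate 3 was the nearest wild-type library to vip1-1. Cre16.g680230 had 82.1, 79.2 and 67.1 CPM in vip1-1 control, against 170, 225 and 228 CPM in wild-type control (log2 fold change -1.45 ± 0.25, SE, edgeR adjusted p = 0.037). Under stress both were lower again in vip1-1, Cre16.g671950 at 37.9 to 48.4 CPM against 211 to 384 CPM in wild-type, and Cre16.g680230 at 20.0 to 25.5 CPM against 97.3 to 160 CPM.

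Cre16.g671600 had 6.17, 5.51 and 3.96 CPM in vip1-1 control, against 30.3, 15.9 and 16.9 CPM in wild-type control. Cre16.g676869 had 3.01, 2.61 and 2.98 CPM in vip1-1 control, against 16.1, 12.3 and 12.2 CPM in wild-type control. Cre16.g673100 had 3.59, 4.23 and 5.60 CPM in vip1-1 control, against 17.0, 15.3 and 13.1 CPM in wild-type control. In all 3, every vip1-1 control library was well under every wild-type control library. In the order above, SDs within vip1-1 control were 1.14, 0.223 and 1.03 CPM around means of 5.21, 2.87 and 4.47 CPM. Under stress Cre16.g671600 was called lower again (edgeR adjusted p = 0.029). Cre16.g676869 (edgeR adjusted p = 0.10) and Cre16.g673100 (edgeR adjusted p = 0.42) were not called there.

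Off chromosome 16, Cre03.g188800 had 12.8, 16.4 and 18.0 CPM in vip1-1 control, against 43.7, 42.3 and 39.9 CPM in wild-type control (log2 fold change -1.41 ± 0.20, SE, edgeR adjusted p = 0.017). Cre17.g725550 had 22.9, 21.5 and 16.6 CPM in vip1-1 control, against 47.3, 44.1 and 44.1 CPM in wild-type control. Cre06.g258500, chosen after its values were seen, had 5 counts in all in vip1-1 control, from replicate 2, against 1.49, 4.38 and 4.07 CPM in wild-type control. Its fitted log2 fold change was -6.00 ± 0.87 (SE, edgeR adjusted p = 0.021) and -8.98 without vip1-1 control replicate 2. Cre11.g467763, also chosen after its values were seen, had 0.825, 0.256 and 0.548 CPM in vip1-1 control, against 6.54, 6.14 and 3.78 CPM in wild-type control. It was at 31.2 to 34.8 CPM in vip1-1 stress and 19.4 to 63.2 CPM in wild-type stress.

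**Figure D4:**
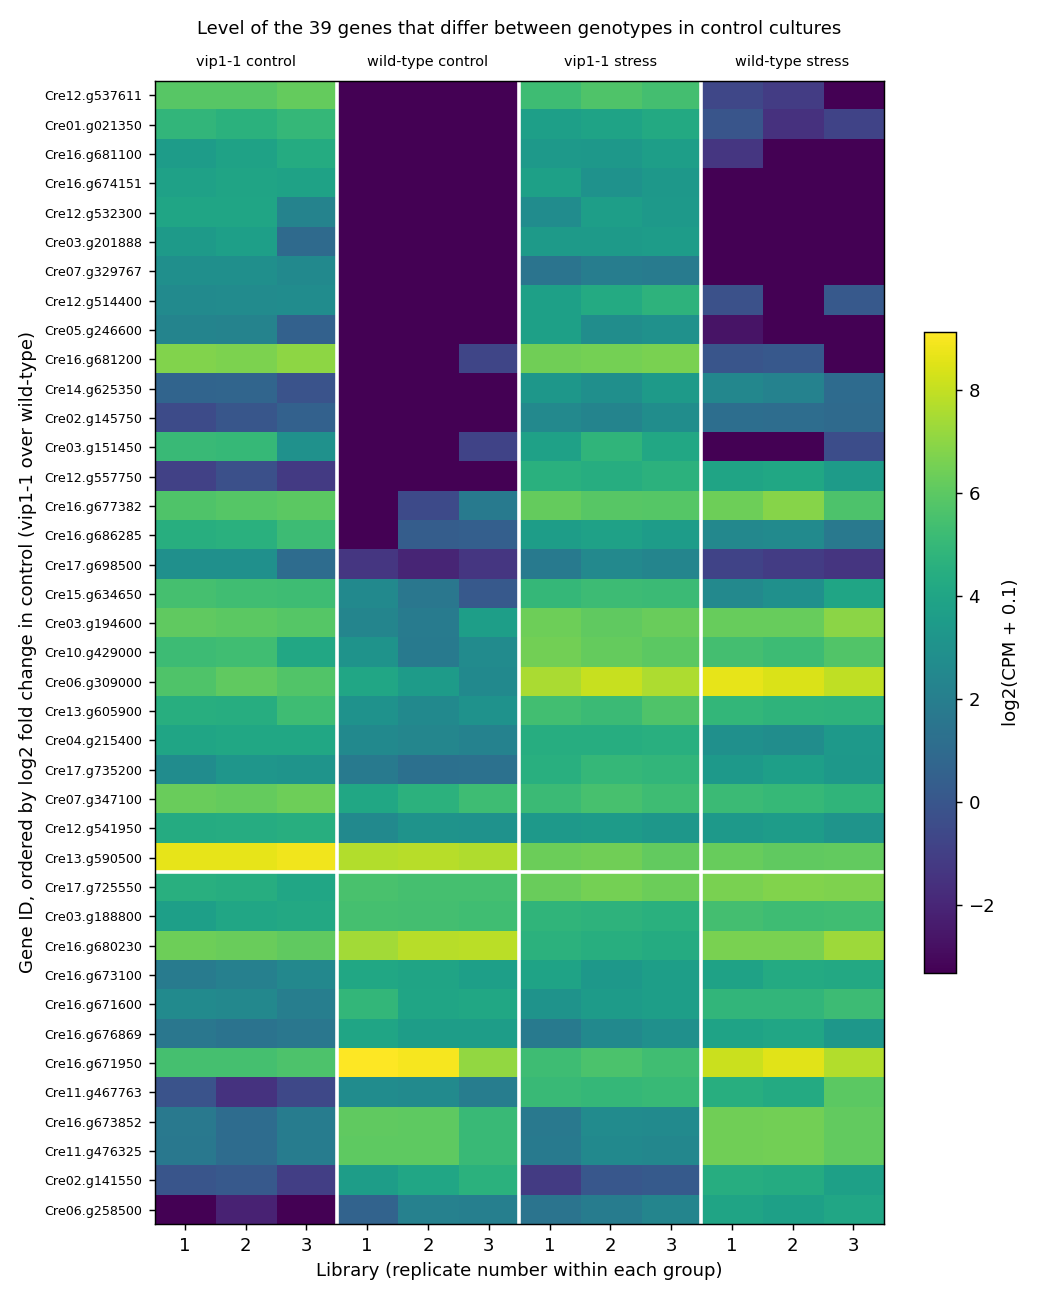
Level of the 39 called genes (rows) in each library (columns, by group), as log2(CPM + 0.1). The vip1-1 control columns lie wholly above the wild-type control columns in 27 rows and wholly below them in 12.

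The stress libraries gave a second look at the same genes in other samples. Both comparisons came from the same fit and shared each gene's estimate of spread, so the second is not fully independent of the first. There, 239 of 15286 genes (1.56%) differed between vip1-1 and wild-type. Of the 39 control calls, 20 were called again, 14 higher and 6 lower and each in its control direction, which is 51.3% of the control calls and 8.37% of the stress calls. In 32 of the 39 the stress libraries of the genotypes did not overlap, against 31.3% of all tested genes. Of the 19 not called under stress, 16 had the same sign. The others were Cre16.g677382, Cre03.g194600 and Cre06.g309000, with log2 fold changes of -0.40, -0.28 and -0.62 under stress.

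Whether the genotype difference itself changed between control and stress was tested with the interaction term, which uses the control values that chose these genes and so is not independent of the choice. None of the 39 genes passed it in edgeR, with 6 genes passing among all tested (0.0393%), and the lowest adjusted p among the 39 was 0.061 for Cre01.g021350. At an unadjusted p under 0.05, 23 of the 39 passed, against 8% of all tested genes. DESeq2 called 12 of the 39 for the interaction and limma-voom with sample weights also called 12. Both called more genes in the control comparison too, 274 and 347 against 39. Their 12 is not set here against a share of all tested genes.

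By chromosome, 11 of the 39 genes lay on chromosome 16, 5 higher and 6 lower, which is 0.958% of its 1148 tested genes against 0.255% of all genes. Without Cre16.g673852, whose reads may belong to the ID on chromosome 11, it was 10 genes (0.871%). The next highest count was 5 genes on chromosome 12 (0.329%), and the next highest share was 0.556% on chromosome 15, from 1 gene. All 11 fell within ranks 506 to 1049 of the 1148 tested genes in gene order, a stretch of 544 genes of which 2.02% were called. The bounds of this stretch are the called genes themselves, so the share is a description.

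The 6 lower genes of chromosome 16 lay closer together, within ranks 943 to 1049. In that stretch of 107 tested genes, 34 genes (31.8%) had a log2 fold change of -1 or less in control cultures, against 2.83% of all tested genes. Under stress the same stretch had 41 genes (38.3%) at -1 or less, against 8.70% of all tested genes. There, 11 of its genes (10.3%) were called, 10 of them lower in vip1-1, against 1.56% of all tested genes. The median log2 fold change of the stretch in control was -0.37, against 0.11 over all genes. Its first gene is Cre16.g673852, whose place is uncertain. Without it, the other 5 lower genes spanned ranks 956 to 1049, where 30 of 94 genes (31.9%) were at -1 or less in control and 37 (39.4%) under stress, with a median of -0.29 in control. The bounds of both stretches are called genes that count among those at -1 or less. Their shares, medians and counts of calls are therefore a description. That holds under stress too, since some of the genes that set the bounds were called there again.

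**Figure D5:**
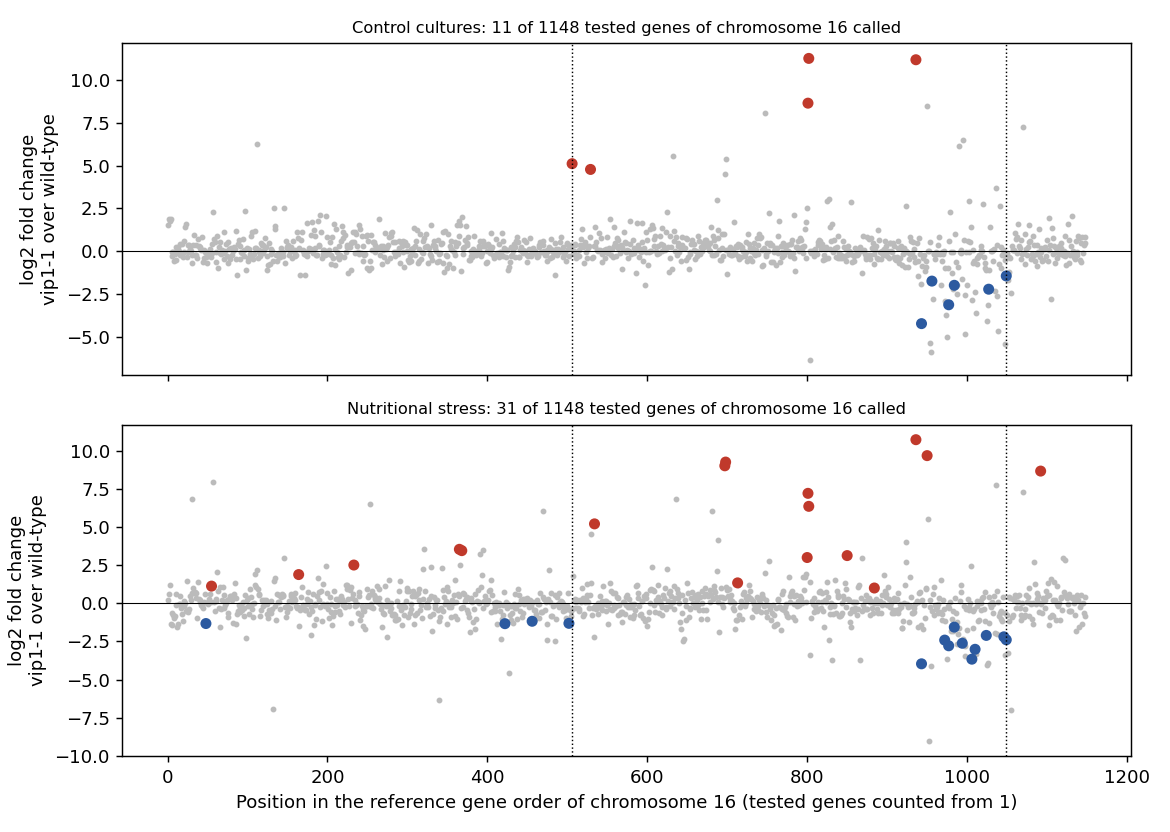
Log2 fold change of vip1-1 over wild-type (y axis) for the tested genes of chromosome 16 in gene order (x axis, rank), in control cultures and under stress. Coloured points are called genes, red where higher and blue where lower in vip1-1; 11 were called in control and 31 under stress.

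Genes with counts in one genotype and none in the other were counted apart from the test. In 42 genes every wild-type control library had 0 counts and every vip1-1 control library had at least 10, and 0 genes showed the opposite. The unequal depth bears on this count, since wild-type control replicate 1 was shallow. With libraries 2 and 3 of each group alone, 63 genes were at 0 in wild-type control and 2 in vip1-1 control. Depth was still unequal there, with effective depths of 13690534 and 27239952 counts in wild-type against 39020888 and 32831882 in vip1-1. Of the 42, 12 were called and 30 were not, of which 3 were too low to be tested. The 30 had mean levels of 0.434 to 2.60 CPM in vip1-1 control and, at that level, 1.46 to 8.73 counts would have been seen in wild-type control replicate 1 and 11.8 to 70.7 in replicate 3. On chromosome 16 lay 8 of the 42 (19.0%), against 7.51% of the tested genes.

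The other libraries split these 42 genes. In 12, no wild-type library of either condition had a count and all 6 vip1-1 libraries had some: the called genes Cre16.g674151, Cre12.g532300, Cre03.g201888 and Cre07.g329767, and 8 that were not called in control cultures, which are Cre16.g683035, Cre16.g673400, Cre02.g117450, Cre17.g709876, Cre05.g234643, Cre13.g583287, Cre01.g060712 and Cre07.g324866. Of those 8, Cre16.g673400, Cre02.g117450 and Cre07.g324866 were called higher in vip1-1 under stress. In 24 of the 42, at least 1 wild-type stress library had counts. Cre03.g162800, Cre16.g672250 and Cre12.g534961 had counts in vip1-1 control alone, and Cre14.g610850, Cre07.g325812 and Cre03.g162200 had counts in some vip1-1 stress libraries and in no wild-type one.

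Leaving out wild-type control replicate 3 turned the count of calls into 849, of which 692 were higher and 157 lower in vip1-1, and all 39 genes were among them. Of the 810 genes added, 355 (43.8%) had their replicate 3 value within the range of the vip1-1 control libraries, 166 (20.5%) had it beyond that range on the side away from the other wild-type libraries, and 289 (35.7%) on the wild-type side. Leaving out replicate 3 of both groups called 697 genes, 593 higher and 104 lower. Of the 849, 52 were also called under stress, 6.12% of the 849 and 21.8% of the stress calls, 51 of them in the same direction. The part that wild-type control replicate 3 has in the size of the comparison was measured by these counts, and what sets that library apart was not tested.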

How the data were processed

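The authors deposited whole-number read counts per gene and FPKM values for the same 17741 IDs in 12 libraries of polyadenylated RNA, prepared with a stranded protocol per the labels. The submitters' processing notes name HISAT2 and StringTie, without versions or roles. The build, annotation and strand setting behind the counts are not given in the sources used here, so reads of overlapping genes may not be separated. Counts over the deposited FPKM values, set against each library's total count, varied by 0.468% (SD as a percent of the mean, 2789 genes), so the FPKM values carry no correction for composition.

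Counts were tested with edgeR 4.0.16 in R 4.3.3: filterByExpr by group, TMM scaling, a group-means model over all 12 libraries, robust quasi-likelihood test, Benjamini-Hochberg adjustment over 15286 genes, threshold 0.05. A further 647 IDs had 0 counts throughout. CPM values use the TMM-scaled library size. Floors are 3 counts per library and cover counting error only. Standard errors are of the log2 fold change, approximated as its size over the square root of the F statistic. Alternatives used DESeq2 1.42.0 and limma 3.58.1, FPKM with pseudocounts of 0.1 and 1, other scalings and filters, a replicate block, and each control library left out. Simulated counts covered 14981 genes of this comparison. On them the test recovered 4% of 100 genes changed 2-fold and 76% of 100 changed 8-fold, with 6 false calls. In that simulation 2-fold changes were therefore mostly missed. Whether group size or the spread within a group set this limit was not tested. With the measured counts, the smaller set without wild-type control replicate 3 gave 849 calls, against 39 with all libraries.

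Named genes passed 0.05, reached a mean of 10 CPM in one group and had groups without overlap (up to 15 per direction), or 0 counts in one control group and at least 10 in each library of the other, or a called neighbour. Members, lists and rules were chosen with earlier results of these data known. The reference table (Chlamydomonas_reinhardtii_v5.5) matched 17738 IDs by locus tag and held no names for them, so 25 functional lists and 15 protein motif lists matched 0 members. It was used only for gene order. The chromosome is the one written in the ID. Replicates differed beyond counting noise (chi-square per degree of freedom 12.8 to 877), so no library was a copy of another. They are called biological by the labels. Deviations of same-numbered control libraries from their group means correlated at 0.157, 0.185 and 0.403, all over 0.1, so the numbers were taken as pairs on this check alone. Between wild-type control and vip1-1 stress, same-numbered libraries correlated at 0.192, -0.182 and 0.296. Deviations of differently numbered libraries were not compared, so the check cannot establish a pairing. The 6 abundant features were defined after their counts were seen, as features correlated above 0.98 in log count with the most abundant one.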

Additional observations from a re-analysis of the deposited data

How the results depend on the processing

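The count of 39 genes in control cultures was 8 with the control libraries alone, 12 with a replicate block in all 12 libraries, 0 with a block nested in condition, 0 with a block in the control libraries alone, 23 with at least 10 counts required in every library, 25 with library totals alone (21 higher, 4 lower), 274 with DESeq2, 347 with limma-voom and sample weights, 85 and 133 with limma on log2 FPKM with pseudocounts of 0.1 and 1, and 697 without replicate 3 of both groups. Leaving out 1 control library gave 9 to 849. It was 37 with DESeq2's size factors for scaling, 37 without a filter and 36 without the 6 abundant features. The share of higher calls was 27 of 39, against 9 higher and 14 lower with the stricter filter, 181 and 93 with DESeq2, 169 and 178 with limma-voom, 81 and 4 or 125 and 8 on FPKM, and 4 and 4 with the control libraries alone. Of the 39, the 20 called under stress became 35 with limma-voom and 7 with the nested block. With 1 library left out they became 17 to 21. They became 7 with the stricter filter, which tested 9499 genes and drops any gene at 0 in wild-type control. Its counts, and its split into higher and lower calls, therefore depend on which genes it keeps. The 0 called for the interaction became 2 with the stricter filter, 12 with DESeq2, 12 with limma-voom, 1 without the 6 features, 1 on FPKM with a pseudocount of 1, 6 without replicate 3 of both groups and 0 to 8 with 1 library left out. Over 759 pairs of gene and alternative, 440 kept their call, 319 lost it and 0 reversed. A reversal was hardly possible, since the control groups did not overlap in any of the 39 genes. The causes were not tested. Depth limits the wild-type zeros: replicate 1 of wild-type control had an effective depth of 3361747 counts.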
